A study of Mus musculus with 4 samples.

Results

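Glycogen is the branched store of glucose in the liver, and 7 genes of its synthesis and breakdown were followed between fasted and refed mouse liver: Gys2, Gbe1, Ugp2, Pygl, Phka2, Ppp1r3b and Ppp1r3c. They were chosen by name, out of 31829 gene names on the array, and every probe that carries one of these names was used, which gave 10 probes of 39429. Gys2, Ugp2 and Phka2 have 2 probes each and the other genes have 1. Within a gene no measured value entered the choice of probes, but the 7 genes themselves were chosen with earlier results of these data known.

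All 8 mice were male C57BL/6J animals of 8 to 12 weeks with no genetic change named in the labels. Of these, 4 were fasted for 24 h before their livers were taken, and 4 were fasted for 24 h and then given food for 2 h, so that the controls had also been through the fast. RNA of each liver was labelled with Cy5 (red) or Cy3 (green), and 1 fasted and 1 refed liver, paired at random, shared each of 4 two-colour arrays. The fasted liver carried Cy5 on replicates 1 and 2 and Cy3 on replicates 3 and 4. Each array thus gave 1 ratio per probe, printed on the log2 scale as fasted over refed, in which a value above 0 means more signal in the fasted liver, and a replicate is 1 array.

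In hepatocytes glucose is phosphorylated, turned into UDP-glucose by Ugp2, added to the growing chain by the liver glycogen synthase Gys2 and branched by Gbe1. Pygl, the liver glycogen phosphorylase, releases glucose 1-phosphate from the chain ends, and it is switched on by phosphorylase kinase, whose liver alpha subunit is Phka2. Ppp1r3b and Ppp1r3c bring protein phosphatase 1 to the glycogen particle, where it activates the synthase and switches the phosphorylase off. Much of this control acts on the phosphorylation of existing enzymes, which an RNA array does not measure.

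The results turned on the probes of 4 of these genes, whose first 30 of 60 bases are shown here 5′ to 3′ as the scanner files give them, with positions in the mm9 build. Capitals in the Ppp1r3b probe mark a run of the dinucleotide GT repeated 6 times, which no other probe of the 7 genes holds.

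Gys2, brighter probe, chr6:142371157-142371216, minus strand: gagtcaccttactgtaacggtacttttgtt
Gys2, dimmer probe, chr6:142371915-142371974, minus strand: ctttccaaaggggaagaaaaagcttcatgg
Phka2, brighter probe, chrX:157029014-157029073, plus strand: gcccagttcaggctgccagatgcagtaggg
Ppp1r3b, chr8:36451115-36451174, plus strand: GTGTGTGTGTGTggtggaagagaatgattt
Ppp1r3c, chr19:36806457-36806516, minus strand: gtagatatgaattattttgaatgtgaactg

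The other probes lie on chromosome 16 at 70569840 to 70569899 for Gbe1, on chromosome 11 at 21221975 to 21222034 and 21221281 to 21221340 for Ugp2, on chromosome 12 at 71291855 to 71291914 for Pygl and on chromosome X at 156992238 to 156992297 for the dimmer Phka2 probe. Whether a probe lies in an exon or a UTR is not given in the sources used here.

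Over the whole array, 19721 probes were kept, meaning that they stood well above background on all 4 arrays in at least 1 condition. Of these, 335 were called higher and 410 lower in fasted liver, where a call is a Benjamini-Hochberg adjusted p under 0.10 in limma together with a change of at least 1.5-fold. With median centring in place of loess the same limits gave 230 higher and 635 lower. The median brightness of gene spots was 40 to 75 in red and 44 to 96 in green over local backgrounds of 20 to 35, and no spot was saturated. The 6 hepatocyte markers checked (Alb, Apoa1, Ttr, Cps1, Cyp3a11 and Serpina1a) were all above background and none was called. Of 5 skeletal muscle markers, 4 were never above background. On replicate 3, however, 10 markers of pancreatic acinar cells had a median ratio of -3.96, against -0.03 to 0.03 on the other arrays. Their summed log2 signal was 15.3 in that refed liver and 10.6 to 10.7 in the other refed livers, against 10.7 to 11.3 in the fasted ones. The 3 red blood cell markers (Hba-a1, Hbb-b1 and Alas2) had median ratios of 2.35, -0.27, 2.37 and 0.23 on replicates 1 to 4, with summed log2 signals of 14.7 to 16.9 in fasted and 13.9 to 15.1 in refed livers. The 4 Kupffer cell markers had median ratios of 0.55, -0.18, 0.70 and -0.22. The 3 endothelial markers (Pecam1, Cdh5 and Stab2) had median ratios of 0.05, 0.03, 0.16 and 0.30, and their summed log2 signals of 11.47 to 11.58 in fasted livers lay above those of 11.08 to 11.32 in refed livers. The part of these markers in the results below was not tested. Because the samples are bulk tissue, fewer cells of a type and less RNA per cell cannot be told apart. Values without replicate 3 are given for each gene that passed a test.

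Of the 7 genes, Gys2 and the brighter probe of Phka2 had higher signals in fasted liver with an adjusted p below 0.10 by limma, and 0 of the 9 kept probes were called, since no such difference reached 1.5-fold. The other 5 genes did not pass the test. With normexp fitted on all spots, with median centring and with the channels taken separately, 0 of the 9 probes had an adjusted p under 0.10 (0.558, 0.228 and 0.309 for the brighter Gys2 probe). Calls in either direction made up 3.78% of all kept probes, and 10.9% had an adjusted p under 0.10 at any fold (4.74% higher and 6.13% lower in fasted liver), against 3 of the 9 kept probes here, all higher. At an unadjusted p under 0.05 the number was also 3 of 9, where 21.6% of all kept probes passed, and the rebuilt SAM test likewise called 0 and found 3 at a q under 0.10. The median of the 7 genes, each by its brightest kept probe, was 0.0099 on the log2 ratio scale, with 4 genes above 0 and 3 below. The median over all kept probes was -0.0010.

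**Figure D1:**
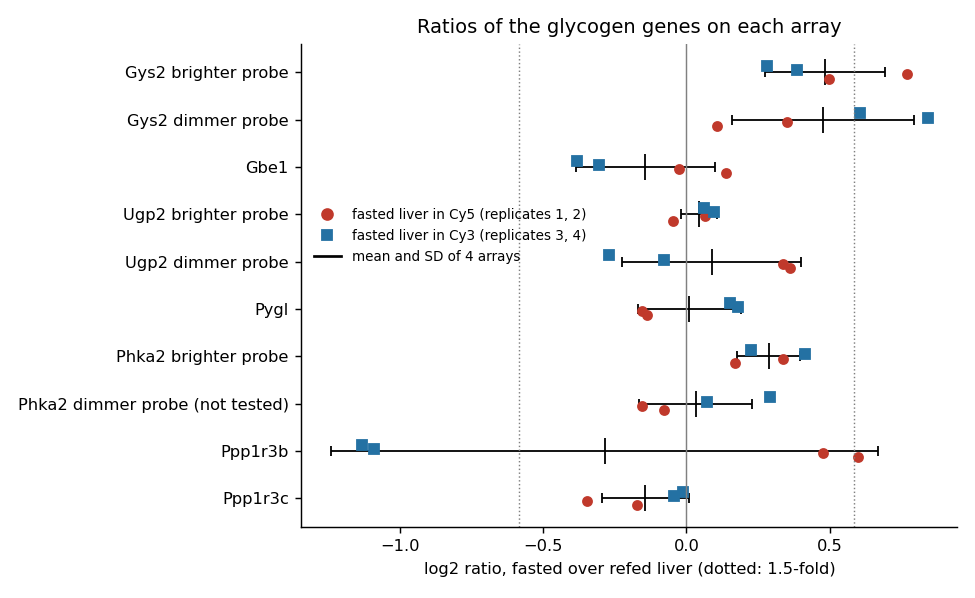
Log2 ratio of fasted over refed liver (x axis) for each probe of the 7 genes (y axis), with 1 point per array; red circles are the arrays with the fasted liver in Cy5, blue squares those with it in Cy3, and black bars give the mean and SD of 4 arrays. Both Gys2 probes and the brighter Phka2 probe lie above 0 on all 4 arrays, and the Ppp1r3b points fall on opposite sides of 0 by dye orientation.

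Gys2, which catalyses the chain-lengthening step of liver glycogen synthesis, had the largest mean difference of the 7 genes, and it was higher in fasted liver. At its brighter probe the log2 signals of the fasted livers on replicates 1 to 4 were 13.95, 13.43, 12.96 and 13.16, and those of the refed livers were 13.45, 12.66, 12.58 and 12.88. The fasted liver was the brighter one on every array, while the groups overlapped, with replicate 1 bright in both channels. The ratios were 0.499, 0.769, 0.385 and 0.281, with a mean of 0.48 ± 0.21 (SD, n = 4), a 1.40-fold higher level with a 95% interval of 1.19 to 1.65 and an adjusted p of 0.0445 in limma. The dimmer Gys2 probe, on the same strand, gave 0.108, 0.353, 0.842 and 0.605, with a mean of 0.48 ± 0.32 (SD, n = 4), a fold of 1.39 (95% interval 1.12 to 1.72) and an adjusted p of 0.0871. Here replicates 3 and 4 had the larger ratios, where the brighter probe had its smaller ones, and the log2 signals were 10.6 to 10.8 in fasted and 9.74 to 10.7 in refed livers.

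The means of both Gys2 probes agreed to 2 decimals although their order over the arrays did not. Their root mean square difference over the 4 arrays was 0.400, and 12.7% of all kept probes were closer than that to the brighter probe. The dye effect, measured as Cy5 over Cy3 in a separate model that holds the dye as a second term, was 0.15 at the brighter and -0.25 at the dimmer probe, with adjusted p of 0.224 and 0.105 in limma. Without replicate 3 the mean was 0.52 (adjusted p of 0.140) at the brighter probe and 0.36 (adjusted p of 0.265) at the dimmer one. Without replicate 2 the adjusted p was 0.123 and 0.182. Hepatocyte markers had median ratios of 0.26, 0.27, -0.04 and -0.20 on replicates 1 to 4, and whether this bears on Gys2 was not tested.

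Gbe1, the branching enzyme, was not distinguishable between the groups. Its ratios were 0.137, -0.025, -0.306 and -0.382, with a mean of -0.14 ± 0.24 (SD, n = 4) and an adjusted p of 0.510 in limma. The 95% interval ran from 0.757-fold to 1.08-fold of the refed level, so a change of 1.5-fold in either direction lay outside it. The 4 fasted livers had log2 signals between 11.7 and 12.0 and the 4 refed livers between 11.8 and 12.1.

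Ugp2, which makes the UDP-glucose that the synthase uses, had the narrowest spread of the 7 genes at its brighter probe. The ratios there were -0.047, 0.064, 0.097 and 0.060, with a mean of 0.04 ± 0.06 (SD, n = 4) and an adjusted p of 0.792 in limma, and the 95% interval of 0.917-fold to 1.16-fold held no change. The dimmer Ugp2 probe gave 0.360, 0.337, -0.077 and -0.269, with a mean of 0.09 ± 0.31 (SD, n = 4) and an adjusted p of 0.762. Its sign followed the dye orientation, and the dye effect of 0.26 had an adjusted p of 0.0651. Both Ugp2 means turned negative with median centring.

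Pygl, the phosphorylase that opens glycogen breakdown, showed no difference that held a sign. Its ratios were -0.136, -0.156, 0.178 and 0.153, with a mean of 0.0099 ± 0.18 (SD, n = 4) and an adjusted p of 0.968 in limma. The sign again followed the dye orientation, with a dye effect of -0.16 whose adjusted p was 0.145. The 95% interval of the fold was 0.865 to 1.17. The log2 signals were 13.58 to 14.07 in fasted and 13.72 to 14.02 in refed livers, and the mean turned negative under 5 of 18 alternatives, median centring among them.

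Phka2, the liver alpha subunit of the kinase that activates the phosphorylase, was higher in fasted liver at its brighter probe by less than 1.5-fold. The fasted livers had log2 signals of 9.90, 9.89, 10.09 and 9.76 on replicates 1 to 4 and the refed livers 9.73, 9.55, 9.67 and 9.53. All 4 fasted signals lay above all 4 refed ones, which 5.86% of all kept probes also showed and which held for no other of the 9 kept probes of these genes. None of the 9 had all 4 fasted signals below all refed ones, as 7.81% of all kept probes had. The ratios were 0.171, 0.338, 0.414 and 0.226, with a mean of 0.29 ± 0.11 (SD, n = 4), a fold of 1.22 (95% interval 1.07 to 1.39) and an adjusted p of 0.0854 in limma. The dye effect was -0.03 (adjusted p of 0.780). The adjusted p missed 0.10 without any one of the 4 arrays, at 0.115, 0.226, 0.314 and 0.20 without replicates 1 to 4, with means of 0.25 to 0.33. The dimmer Phka2 probe stood above background in 2 fasted and 1 refed livers, was not tested, and had ratios of -0.077, -0.156, 0.073 and 0.291.

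**Figure D2:**
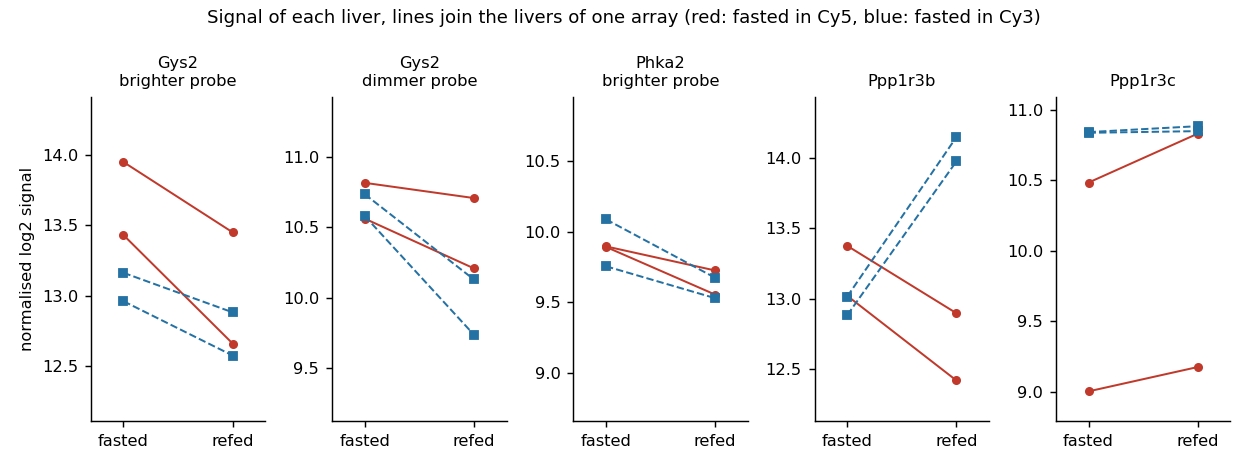
Normalised log2 signal of each liver (y axis) in fasted and refed liver (x axis) for 5 probes; lines join the fasted and the refed liver of 1 array, which are different mice, in red with the fasted liver in Cy5 and in dashed blue with it in Cy3. The lines fall from fasted to refed on all 4 arrays at both Gys2 probes and at Phka2, cross by dye at Ppp1r3b, and show replicate 1 low in both livers at Ppp1r3c.

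Ppp1r3b, known as the GL subunit, is the main glycogen-targeting subunit of protein phosphatase 1 in liver, and its ratio changed sign with the dye. On replicates 1 and 2, with the fasted liver in Cy5, the log2 ratios were 0.600 and 0.478, and on replicates 3 and 4, with it in Cy3, they were -1.09 and -1.13. The fasted livers had log2 signals of 13.02, 13.38, 12.89 and 13.02, and the refed livers 12.42, 12.90, 13.98 and 14.15, so that the refed values lay below the fasted ones on the first pair of arrays and above all of them on the second pair. The mean was -0.29 ± 0.95 (SD, n = 4), its adjusted p by limma was 0.697, and the 95% interval of the fold ran from 0.468 to 1.44. Leaving out 1 array moved the mean to -0.58 and -0.54 without replicates 1 and 2, and to -0.018 and -0.0040 without replicates 3 and 4. The dye effect was 0.82 on the log2 scale, or 1.77-fold brighter in Cy5, with an adjusted p of 0.00326. With the dye as a term in the model the mean difference of -0.29 had an adjusted p of 0.0243, still under 1.5-fold. Of the 9 kept probes, 2 had a dye effect at an adjusted p under 0.10, this one and the dimmer Ugp2 probe, both brighter in Cy5, beside 14.8% of all kept probes in either direction and 7.33% brighter in Cy5.

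The repeat at the start of the Ppp1r3b probe was shared by other probes with the same dye effect. Among the kept probes, 100 hold GT repeated 6 times, and 98 of these had a dye effect with an adjusted p below 0.10, all of them brighter in Cy5. Their median dye effect was 0.82. Of 44 kept probes with AC repeated 6 times, the complement of that run, 5 had a dye effect (11.4%), and of the 19577 kept probes with neither run 14.3% had one. The GT probes were bright, with a median log2 signal of 14.004 against 8.24 over the kept probes with neither run, and brightness is not compared here as a level of transcripts, since it also depends on the probe. Their median log2 ratios of fasted over refed liver were 1.27, 1.19, -0.44 and -0.41 on replicates 1 to 4, so the median of their means was 0.43, not 0, and 0 of them were called.

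**Figure D3:**
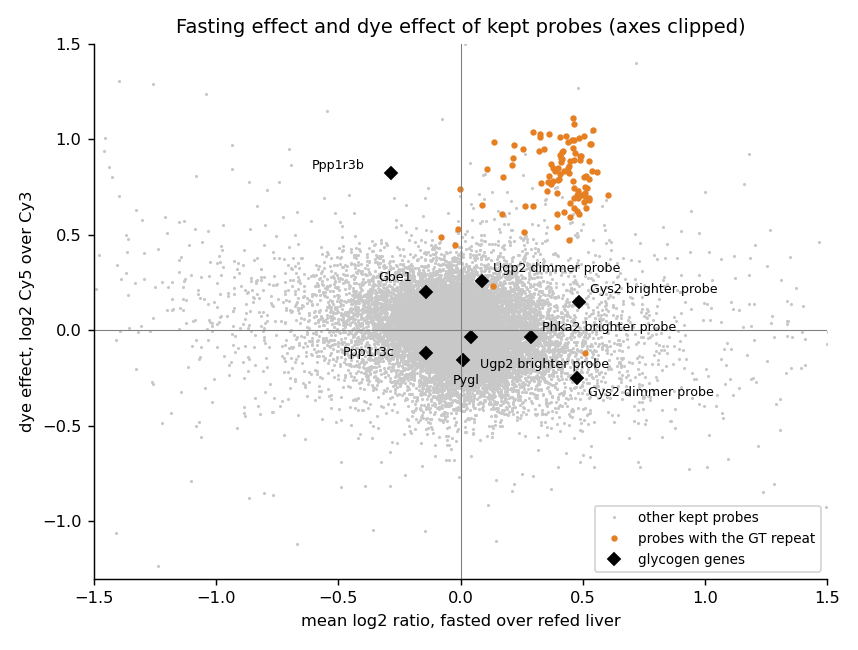
Mean log2 ratio of fasted over refed liver (x axis) against the dye effect as log2 Cy5 over Cy3 (y axis) for kept probes in grey, with probes that hold the GT repeat in orange and the kept probes of the 7 genes as black diamonds; both axes are clipped. Ppp1r3b, at -0.29 and 0.82, lies at the height of the orange probes and to the left of all of them.

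Within that set of probes Ppp1r3b stood at the low end. Its mean of -0.29 was the lowest of the 100, the next lowest being -0.08 and the highest 0.602, and its ratio ranked 5th, 5th, 1st and 1st from the lowest on replicates 1 to 4. Set against the median of the other 99 on each array, its log2 ratio was -0.67, -0.72, -0.65 and -0.72, with a mean of -0.69 ± 0.03 (SD, n = 4), or 1.61-fold lower in fasted liver than that median. Against the 90 of them with a log2 signal above 10 it was -0.70 ± 0.04 (SD, n = 4). This reference was picked after the values had been seen, so it is a description with no test. It also measures Ppp1r3b relative to probes whose own median log2 ratio was 0.44, and not relative to the whole array.

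**Figure D4:**
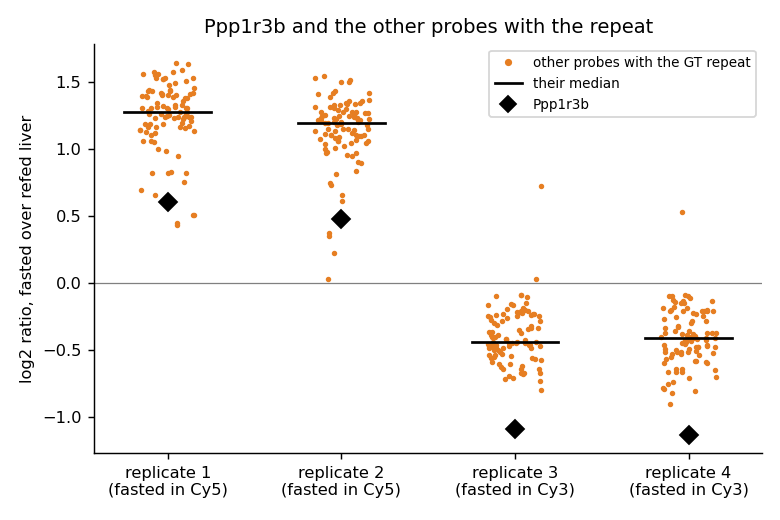
Log2 ratio of fasted over refed liver (y axis) on each of the 4 arrays (x axis) for the 99 other kept probes with the GT repeat in orange, their median as a black line, and Ppp1r3b as a diamond. The medians fall from 1.28 and 1.20 with the fasted liver in Cy5 to -0.44 and -0.41 with it in Cy3, and Ppp1r3b lies 0.65 to 0.72 below the median on each array.

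Ppp1r3c, also called PTG or protein targeting to glycogen, was not distinguishable between the groups. Its ratios were -0.173, -0.347, -0.042 and -0.012, below 0 on all 4 arrays as were those of 16% of all kept probes, with a mean of -0.14 ± 0.15 (SD, n = 4) and an adjusted p of 0.400 in limma. The 95% interval of the fold was 0.786 to 1.04. Both livers of replicate 1 had low signals, at 9.003 in the fasted and 9.18 in the refed liver on the log2 scale, against 10.48 to 10.84 in the other fasted and 10.83 to 10.88 in the other refed livers. On that array 95 kept probes (0.482%) lay at least 1 below the mean of the other arrays in both channels. The same count was 2, 5 and 4 on replicates 2 to 4, so such probes were more frequent on replicate 1. There 9 probes, Ppp1r3c included, were at least as low as Ppp1r3c in both channels. Without replicate 1 the mean ratio was -0.13 (adjusted p of 0.551).

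Across the 9 kept probes, 4 kept one sign on all 4 arrays: both Gys2 probes and the brighter Phka2 probe above 0, and Ppp1r3c below 0. Of all kept probes, 13.6% were above 0 on every array. In 4 others (Gbe1, the dimmer Ugp2 probe, Pygl and Ppp1r3b) the mean of replicates 1 and 2 had the opposite sign to that of replicates 3 and 4, as it had in 46.6% of all kept probes, and the remaining Ugp2 probe was within 0.10 of 0 on each array. By the size of the mean log2 ratio the genes ran from Gys2 (0.48) over Phka2 (0.29), Ugp2 (0.04), Pygl (0.0099), Ppp1r3c (-0.14) and Gbe1 (-0.14) to Ppp1r3b (-0.29). Each gene's 95% interval of the mean overlapped that of its neighbour in this order. Neighbours were not compared array by array, so the overlap does not show whether they differ. The 3 other genes whose 4 ratios came closest to those of the brighter Gys2 probe were a transcript named only by its Ensembl identifier, Nedd4l and Hsd17b10, at root mean square differences of 0.0370, 0.0745 and 0.0806. As 184 kept probes lay within 0.2 of it over these 4 arrays, the likeness is not particular to those genes.

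The rest of the pathway was read from a list of 30 other genes, of which 25 had a kept probe, each taken by its brightest one. Of the 25 genes, 3 were called higher in fasted liver (2 where both channels had to stand above background, which left Ppp1r3g out), 1 was called lower, another 1 was lower at an adjusted p under 0.10 without reaching 1.5-fold, and 20 did not pass, with means between -0.34 and 0.30. Calls made up 1.70% of all kept probes in the higher and 2.08% in the lower direction. The median of the 25 was 0.04, beside -0.0010 over all kept probes. Ppp1r3a, Ppp1r3d, Ppp1r3e, Ppp1r3f and Epm2a had no kept probe and were not tested.

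**Figure D5:**
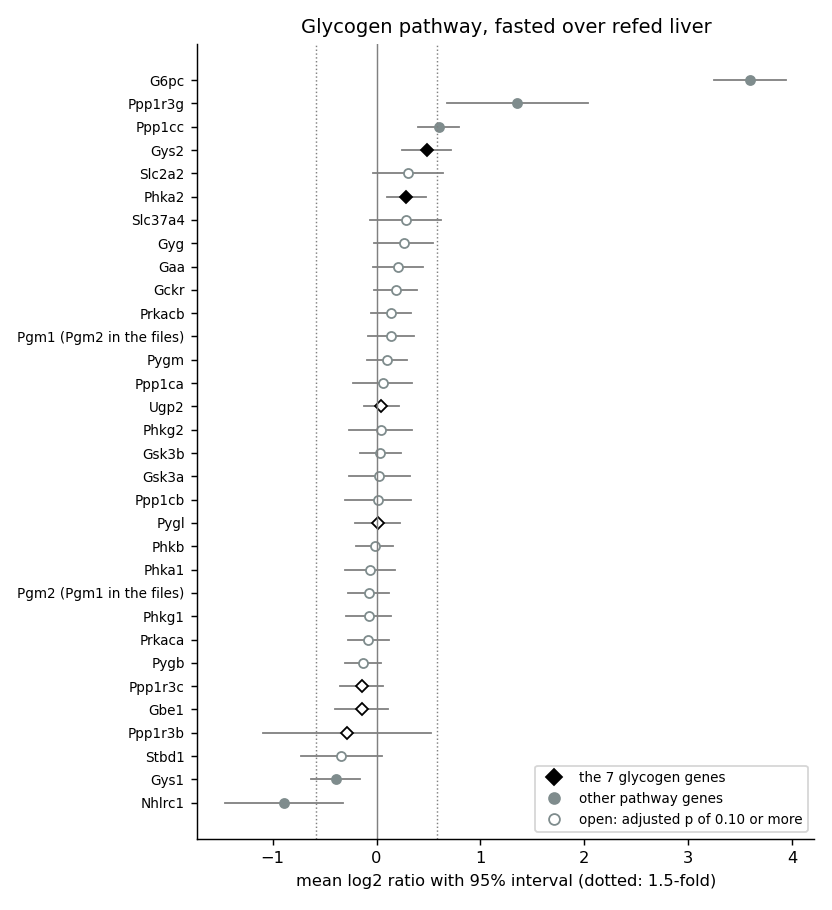
Mean log2 ratio of fasted over refed liver with its 95% interval (x axis) for the 7 genes as diamonds and the 25 other pathway genes as circles (y axis), each by its brightest kept probe; filled symbols have an adjusted p under 0.10 in limma and dotted lines mark 1.5-fold. G6pc at 3.597 lies farthest above 0 and Nhlrc1 at -0.89 farthest below, and the 7 genes lie between -0.29 and 0.48.

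Of 6 other genes on the synthesis side, 0 were higher and 1 was lower. Gys1, the synthase of muscle and other tissues, had ratios of -0.115, -0.349, -0.575 and -0.534 and a mean of -0.39 ± 0.21 (SD, n = 4; adjusted p of 0.0736 in limma), while its second probe was at -0.20 (adjusted p of 0.178). The mean of the brighter Gys1 probe was -0.12 with normexp on all spots (adjusted p of 0.558), -0.59 with plain subtraction and -0.64 from Agilent's processed signals, and its adjusted p was 0.181 and 0.227 without replicates 2 and 4. So the brighter probes of the liver and the muscle synthase genes had means of opposite sign, 0.48 and -0.39, and this difference between genes was not tested. The Gys1 probe was dim, with log2 signals of 6.88 to 7.14 in fasted and 7.26 to 7.52 in refed livers. Those of the brighter Gys2 probe were 12.6 to 13.9. The other 5 (Gyg, Gckr, Slc2a2 and the phosphoglucomutases Pgm1 and Pgm2) ranged from -0.07 to 0.30.

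Of 6 other genes on the breakdown side, G6pc, the catalytic subunit of glucose 6-phosphatase that frees glucose for release, rose by 3.597 ± 0.37 on the log2 scale (SD, n = 4), a 12.1-fold higher level (adjusted p by limma of 0.0017). Its fasted signals of 13.7 to 14.2 did not overlap the refed ones of 9.68 to 10.8. The other 5 (Pygb, Pygm, Gaa, Stbd1 and Slc37a4) lay between -0.34 and 0.28 and did not pass. None of the 4 other phosphorylase kinase subunits (Phka1, Phkb, Phkg1 and Phkg2) passed, with means of -0.08 to 0.04, beside 0.29 for Phka2.

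Among 8 further genes of protein phosphatase 1, 2 were called higher, Ppp1r3g and Ppp1cc, of which Ppp1r3g passed the filter on dim probes through its fasted signals alone. Ppp1r3g is another glycogen-targeting subunit, and its ratios were 2.19, 0.450, 0.948 and 1.84, with a mean of 1.36 ± 0.799 (SD, n = 4) and an adjusted p of 0.0468 in limma. Its refed signal stood above background on 2 of 4 arrays only, and the log2 signals of 6.58 to 8.80 in fasted and 6.03 to 6.61 in refed livers overlapped. The size of its difference is therefore poorly known: the mean was 0.68 with normexp on all spots (adjusted p of 0.558), 2.60 with plain background subtraction and 3.70 from Agilent's processed signals, and the probe left the test where both channels had to stand above background. Without replicate 4 the mean was 1.20 (adjusted p of 0.149). Ppp1cc, the gamma catalytic subunit, had ratios of 0.49, 0.54, 0.81 and 0.57 and a mean of 0.599 ± 0.14 (SD, n = 4; adjusted p of 0.0164), and its other probes gave 0.46 (adjusted p of 0.031) and 0.43 (adjusted p of 0.0466), both under the fold limit. The call thus rested on 1 of 3 probes, at 1.52-fold, and it was lost with normexp on all spots, at 0.49 (adjusted p of 0.163), with median centring, at 0.45 (adjusted p of 0.0695), and when the kept probes of a gene were averaged. Without replicate 3 the other probes were at 0.43 (adjusted p of 0.144) and 0.43 (adjusted p of 0.174). Ppp1ca and Ppp1cb did not pass, at 0.0577 and 0.0122.

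Of the 6 kinase and quality control genes, Nhlrc1, which encodes the ubiquitin ligase malin, was called lower. Its ratios were 0.062, -0.991, -1.20 and -1.41, with a mean of -0.89 ± 0.66 (SD, n = 4) and an adjusted p of 0.0849 in limma, and its ratio on replicate 1 was near 0. The probe was dim, with log2 signals of 6.65 to 7.43 in fasted livers. In refed livers they were 7.37 on replicate 1 and 8.06 to 8.07 on the other arrays. The mean ran from -0.25 with normexp on all spots (adjusted p of 0.579) to -1.39 from Agilent's processed signals. Without replicate 1 the mean was -1.20 (adjusted p of 0.0119), and without replicates 2, 3 or 4 the adjusted p was 0.223 to 0.263. A second, dimmer Nhlrc1 probe was not kept and was at -0.12. Gsk3a, Gsk3b, Prkaca and Prkacb lay between -0.08 and 0.14. Without replicate 3, G6pc (3.74, adjusted p of 0.00584) remained called, while Ppp1r3g (1.49, adjusted p of 0.116) and Nhlrc1 (-0.78, adjusted p of 0.263) were not. Ppp1cc then had an adjusted p of 0.0804 at 0.53, under the fold limit, and Gys1 was at -0.33 with an adjusted p of 0.263.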

How the data were processed

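Median spot signals, deposited as raw intensity in Agilent scanner files, were processed with limma 3.58.1 in R 4.3.3. The file headers name Feature Extraction 10.10.1.1 for grid placement, while the study's methods name an older version. Normexp with an offset of 50 removed the background, after spots with a local background over 3 times the array's median had been left out (55 of 177588). This step was chosen with the data known, and the fit on all spots is among the alternatives. Control and flagged spots were left out (197 to 322 flagged per array), ratios were normalised by loess, and spots of 1 probe were averaged. Signals per liver are those after Aquantile scaling between arrays. The authors also deposited log2 ratios, normalised by loess in limma, which served as an alternative.

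LmFit and eBayes were run on 4 ratios without a dye term, two-sided, with Benjamini-Hochberg adjustment over 19721 kept probes. The dye effect was the second term of another model. SAM, named in the study's methods, was rebuilt with all 16 sign flips. The 4 arrays limit the precision, and an exact sign-flip test of 1 probe could not go below p = 0.125. The livers are separate animals per the labels. The steps were tested on simulated data.

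The 7 genes and the lists were chosen with earlier results of these data known. Named were all 7 genes, the pathway genes called or at an adjusted p under 0.10, and the 3 genes most like the member with the largest mean ratio. Some genes these rules select are not reported here and are left out of the pathway counts. Other pathway genes named without passing are there to complete their group. The phosphoglucomutase probes named Pgm1 and Pgm2 in the files are now Pgm2 and Pgm1 by accession in RefSeq's table for GRCm38.p6. Cell type lists covered hepatocytes, acinar cells, muscle, red blood cells, Kupffer cells, adipocytes, endothelial cells, stellate cells and cholangiocytes. In each list the number of genes called was 0.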

Additional observations from a re-analysis of the deposited data

Results flagged for a closer look

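The refed liver of replicate 1 had a log2 signal of 9.18 at the Ppp1r3c probe, while the other 3 refed livers lay between 10.83 and 10.88. The gap to the nearest of them was 0.969 of the whole range of the 4 values. Of 34 sets of 4 values examined in this way from the 7 genes and the named pathway genes, this was the only one flagged. Chance alone sets about 1 in 20 such sets apart. The fasted liver on the same array was also low at this probe, at 9.003. The refed signal of Nhlrc1, which was not flagged, also stood apart on replicate 1, at 7.37 against 8.06 to 8.07 in the other refed livers.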

How the results depend on the processing

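With normexp fitted on all spots, 5 probes were called higher and 15 lower, 0 of the 7 genes' probes had an adjusted p under 0.10 in limma, and 1 other pathway gene was called higher and 0 lower. Plain background subtraction gave 550 higher and 714 lower, and Agilent's processed signals 686 and 904, and with either 2 other pathway genes were called lower, Gys1 and Nhlrc1. Median centring gave 635 lower and left 0 of the 7 genes' probes under 0.10, as did separate channels with no replicate block, 0 probes. Without a filter on dim probes 0 other pathway genes were called lower. Without the fold limit 935 probes were higher and 1208 lower, 3 probes of the 7 genes passed, and 2 other pathway genes were lower. Leaving out 1 replicate in turn gave 208 to 413 higher and 256 to 525 lower probes, both lowest without replicate 3. It gave 0 to 1 called probes of the 7 genes, 0 to 2 at an adjusted p under 0.10, and 1 to 3 other pathway genes higher and 0 to 1 lower. The 1 call was the dimmer Gys2 probe without replicate 1, at 0.600 (adjusted p of 0.058).

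The mean of Pygl reversed to -0.020 with plain subtraction, -0.008 in the authors' ratios, -0.15 with median centring, -0.046 without replicate 3 and -0.038 without replicate 4, and ran from -0.046 to 0.065 over the 4 omissions. Ugp2 reversed to -0.10 and -0.051 with median centring at its brighter and dimmer probe, and the dimmer one to -0.0030 without replicate 1, within -0.0030 to 0.207 over the 4 omissions. With a dye term Ppp1r3b passed 0.10 (adjusted p of 0.0243). Of 287 values of single probes under these settings, 236 kept their direction and side of the threshold, 42 no longer passed and 8 reversed. Gys2 and Phka2 stayed above 0 under all 18 alternatives run, at 0.336 to 0.551 and 0.209 to 0.600 for the Gys2 probes and 0.155 to 0.379 for Phka2. The adjusted p nevertheless missed 0.10 in 5 and 7 of these for the brighter and dimmer Gys2 probe and in 9 for Phka2. All 3 probes missed it with normexp on all spots (0.558), median centring (0.228, 0.270 and 0.458) and separate channels (0.309, 0.161 and 0.102), and without replicates 2 and 3. The dimmer Gys2 probe also missed it without the filter on dim probes (0.125) and without replicate 4 (0.248), and Phka2 with plain subtraction (0.140), Agilent's signals (0.101) and without replicates 1 and 4. The causes were not tested. The comparison of Ppp1r3b with the other GT-repeat probes was chosen after seeing the data, and moved its mean to -0.69.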
